A study of Mus musculus with 4 samples.

Results

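Gene expression was compared between the epithelium around the hair cells (HCs) of the cochlea, the organ of hearing, and that of the vestibular system, the organ of balance. Both populations were epithelial non-sensory cells (ENSCs), sorted by flow cytometry from newborn *Atoh1/nGFP* mice (postnatal day 1) on a C57BL/6 background. The transgene places a nuclear form of green fluorescent protein under an *Atoh1* enhancer and so labels HCs. ENSCs carried the epithelial surface protein CD326 and lacked the fluorescent protein. The gate was therefore open to any such epithelial cell of the collected tissue and was not limited to a single supporting cell type. The paper names sensory epithelia as the tissue taken from the cochlea and, more broadly, vestibular tissues from the other organ. How much roof and other non-sensory epithelium was collected may thus differ, and this cannot be told apart from a difference between the organs. Tissue from several animals was pooled for sorting, and all mice carried the transgene. The design text speaks of triplicates, but each population had 1 column in the table, so the spread between replicates is unknown and nothing below was tested. HCs of the same 2 organs, 1 library each, serve as a comparison for the genes of the ENSCs.

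Members were chosen by signal alone, without regard to direction. Of 12814 genes in the table, 5889 reached a signal of 200 in 1 or both of the 2 ENSC libraries and are described here. The signal is a read count per gene after quantile normalization, on a linear scale with a floor of 20, and it is not divided by gene length. Each gene's log2 ratio is that of cochlear to vestibular ENSCs, so that a positive value means higher in the cochlea, and a gene is counted as different when the ratio was at least 3-fold. At the edge of the minimum signal, *Camk2g* and *Cog6* were inside with 200 in cochlear ENSCs, and *Arid5a* and *Dhrs3* were outside with 199.75 in vestibular ENSCs. At the edge of the ratio, *Taf1d* was inside with 847 in cochlear and 282 in vestibular ENSCs, and *Wdr13* was outside with 1275 and 425.5. In the other direction *Msrb3* was inside with 75 and 225, and *Mdk* was outside with 754.25 and 2258.

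The cochlear floor at birth holds the greater epithelial ridge, a transient band of tall cells medial to the HCs, the supporting cells around the HCs, and the lateral cells that become the outer sulcus. Above it lie the roof, or Reissner membrane, and the stria vascularis, which pumps potassium into the endolymph. The vestibular organs carry supporting cells, a transitional zone, dark cells that pump potassium, and a thin roof. The cochlear floor secretes the tectorial membrane, whereas the vestibular epithelium secretes otoconia, the crystals that load the HCs of the gravity organs, and the cupula over the HCs of the canals. In bulk populations of this kind, fewer cells of a type and less RNA per cell cannot be told apart.

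Of the 5889 genes, 564 (9.58%) were at least 3-fold higher in cochlear ENSCs and 628 (10.7%) in vestibular ENSCs, or 1192 (20.2%) either way. Most genes differed little, with 60.2% under 2-fold, a median log2 ratio of 0.04 and a range from the 5th to the 95th percentile of -2.40 to 2.25. Over all 12814 genes, without the minimum signal, the shares were 7.8% for the cochlea and 7.94% for the vestibular system. The ratio fell with the GC content of a gene's exons. From the fifth of the genes lowest in GC to the fifth highest, the median log2 ratio went through 0.71, 0.38, 0.09, -0.38 and -1.07, and the number of genes 3-fold higher in vestibular ENSCs went from 14 to 367. Across the genes, which are not independent, Spearman's rho of ratio and GC content was -0.50, against -0.02 for the same genes in the HC libraries. After the trend was subtracted, 576 of 5888 genes (9.78%) were 3-fold higher in cochlear ENSCs and 338 (5.74%) in vestibular ENSCs, or 914 (15.5%) in all. Of the genes counted before the correction, 437 of the 564 cochlear and 312 of the 628 vestibular genes still passed. The cochlear share of the counted genes went from 47.3% to 63.0%. It was 49.8%, with 466 cochlear and 470 vestibular genes, when the trend was fitted on all genes above the floor, so the split depended on the genes fitted. Corrected values below are from the fit on the described genes, and named genes that lost their call after the correction are given as such. What made the ratio follow GC content was not tested.

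**Figure D1:**
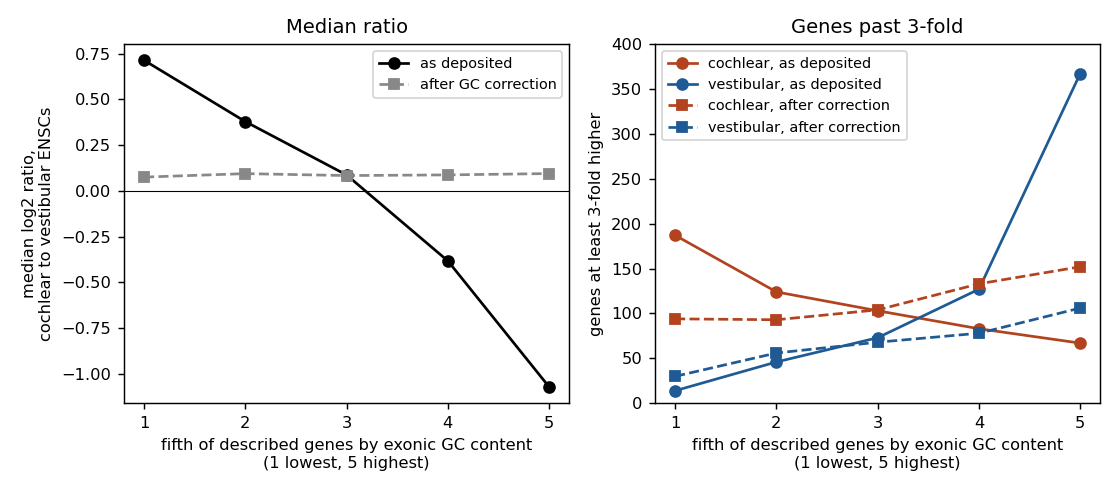
Median log2 ratio of cochlear to vestibular ENSCs (left) and number of genes at least 3-fold higher in either population (right) for 5 equal groups of the described genes ordered by exonic GC content, as deposited (solid) and after the GC trend was subtracted (dashed). The median falls from 0.71 to -1.07 as deposited and lies between 0.07 and 0.09 after the correction.

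The labels were checked against marker genes. *Epcam*, which encodes CD326, read 3376.25 in cochlear and 7511 in vestibular ENSCs, against 1016.75 and 1139.25 in the HCs of the same organs. The HC regulators *Atoh1* (25.5 and 20) and *Pou4f3* (55.25 and 20) were at or near the floor in the ENSC libraries. All 20 listed HC genes were in the table. They summed to 3605.25 in cochlear and 2706.25 in vestibular ENSCs, against 50995 and 62314.5 in the HCs. Of genes of other tissues, 1 of 11 listed leukocyte genes and none of 9 erythroid genes was in the table, and the leukocyte gene read 20 and 24.75. Listed mesenchymal genes were present, with 12 of 18 in the table, and summed to 22443.5 in cochlear and 6582 in vestibular ENSCs. *Lum* made up much of the cochlear sum, with 12731.25 against 413.75, whereas *Col1a1* was higher in vestibular ENSCs, with 58.25 in cochlear and 512.25 in vestibular cells. *Kdr*, the endothelial receptor for vascular endothelial growth factor, read 29 in cochlear and 1461.75 in vestibular ENSCs. It was the only listed endothelial gene above 200, of 2 in the table. Of neuronal genes, 10 of 15 were in the table, and they summed to 6711.75 in cochlear and 570.25 in vestibular ENSCs. Both of those described were cochlear, *Isl1* and *Syt1* (1316.75 and 70.75), and both were also above 1000 in the HC libraries. Cartilage and bone genes, 5 of 10 in the table, summed to 23613.75 and 50000.25. Glial genes, 8 of 10 in the table, summed to 4422.75 in cochlear and 5690.75 in vestibular ENSCs, and 7 of them reached 200. Melanocyte genes, 3 of 10 in the table, summed to 848.25 and 843.25. The part that other cell types have in the differences below was not tested.

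The 10 protein-coding genes that were most strongly cochlear included *Calb1*, *Gpr64*, *Spink5*, *Gata3*, *Matn1*, *Fst*, *Epyc*, *Pappa2* and *Itga8*, with ratios from 50.2-fold to 93.6-fold. *Calb1*, which encodes the calcium buffer calbindin, read 4963 in cochlear and 53 in vestibular ENSCs. It was still higher in cochlear HCs, at 15030.5 against 126, so that it separated the organs in both cell populations. *Gpr64*, an orphan adhesion receptor, read 2978.25 and 33.5 in ENSCs, and 98.25 and 38.75 in the HCs. *Matn1*, a matrilin of cartilage matrix, read 3298.5 and 47.75 in ENSCs and no more than 49.25 in the HC libraries. *Spink5*, a serine protease inhibitor, read 1568.75 in cochlear ENSCs and lay at the floor in vestibular ENSCs, which makes it at least 78.4-fold higher. *Pappa2*, a protease that cleaves IGF-binding proteins, read 1071.5 against the floor, or at least 53.6-fold higher. *Itga8*, an integrin subunit, read 23927 and 476.25, so that it was also above the minimum signal in vestibular ENSCs.

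On the vestibular side the 10 leading genes were *Sfrp5*, *Slco2a1*, *Nox3*, *Vit*, *Aldh1a3*, *Fndc7*, *Mybpc1*, *Zpld1*, *Rpl41* and *Hhla1*, with ratios from 52.5-fold to 134-fold. *Sfrp5*, a secreted WNT inhibitor, read 22.75 in cochlear ENSCs, inside the range of tied low values of that library, and 3054.5 in vestibular ENSCs, so that it was at least 134-fold higher. *Slco2a1*, the prostaglandin transporter, read 29 and 2816.75. Neither was above 30.5 in an HC library, so both were signals of the vestibular ENSCs in these 4 libraries. *Vit*, which encodes the matrix protein vitrin, read 22.5 and 1521.25 in ENSCs and at most 40.5 in HCs. *Zpld1*, a zona pellucida domain protein of the cupula, read 232 and 12911.5. In the HCs it was about as high, at 360 and 12099.25, and *Hhla1* (22.5 and 1193.75) behaved likewise, with 30.75 and 1192.5. *Fndc7* (35.25 and 2120) and *Mybpc1*, a myosin-binding protein (24.75 and 1488.25), were also vestibular in HCs, at 330.5 and 299 against 72.25 and 57.75. *Rpl41*, a very short ribosomal protein gene, read 64.75 and 3549.25, and no GC value was at hand for it.

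**Figure D2:**
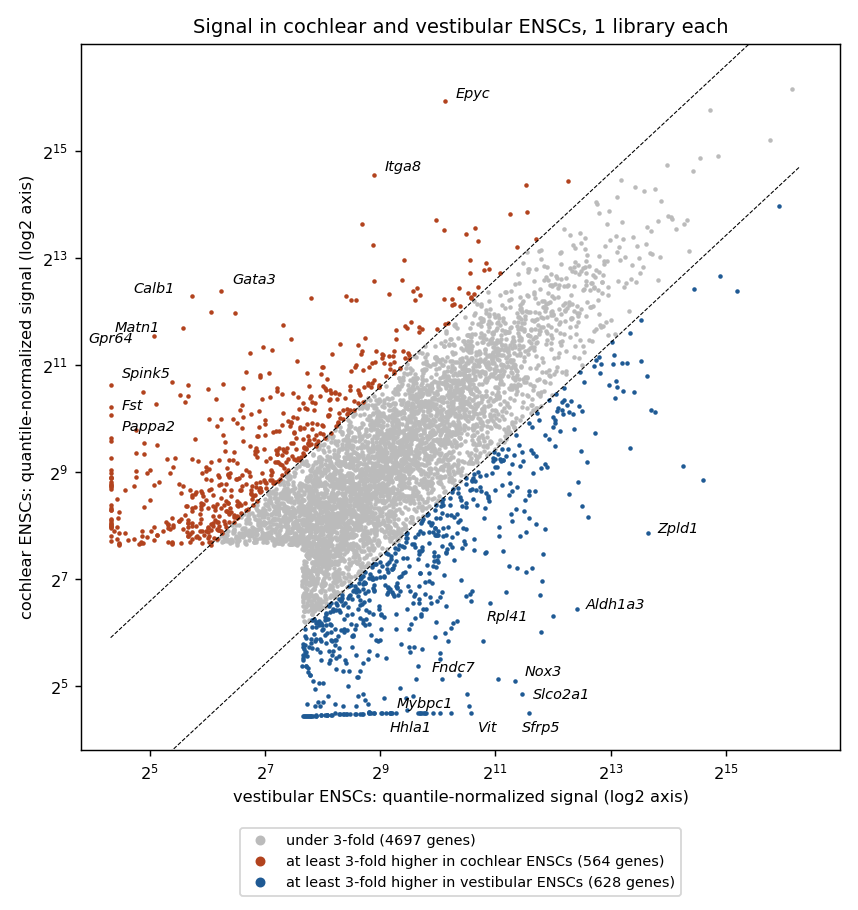
Quantile-normalized signal of the 5889 described genes in cochlear (vertical) and vestibular (horizontal) ENSCs, both on log2 axes, 1 library each. Dashed lines mark 3-fold, and leading protein-coding genes are named. The row of points near the bottom edge and the column near the left edge are genes in the tied low range of 1 library.

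*Gata3*, *Epyc*, *Sfrp5* and *Nox3* stood at the ends of the comparison, and the promoter windows of 3 of them are shown as examples from either end. Windows reach from 250 bases before to 50 after the start of the transcript and come from RefSeq (GRCm38.p6). They were searched on both strands for AGATAA and TGATAA, the letters bound by GATA factors, of which *Gata3* is a member. Both motifs share the letters GATAA and cannot match at the same place, and capitals mark a match on either strand. The windows are at chr10:97646853-97647152 (plus strand) for *Epyc*, at chr19:42202203-42202502 (minus strand) for *Sfrp5* and at chr17:3696212-3696511 (minus strand) for *Nox3*.
Epyc: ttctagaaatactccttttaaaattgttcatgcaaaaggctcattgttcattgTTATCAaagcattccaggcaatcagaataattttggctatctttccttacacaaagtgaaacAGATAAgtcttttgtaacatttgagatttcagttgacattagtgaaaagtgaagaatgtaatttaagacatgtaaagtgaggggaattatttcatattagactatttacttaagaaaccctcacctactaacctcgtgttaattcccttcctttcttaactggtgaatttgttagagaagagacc
Sfrp5: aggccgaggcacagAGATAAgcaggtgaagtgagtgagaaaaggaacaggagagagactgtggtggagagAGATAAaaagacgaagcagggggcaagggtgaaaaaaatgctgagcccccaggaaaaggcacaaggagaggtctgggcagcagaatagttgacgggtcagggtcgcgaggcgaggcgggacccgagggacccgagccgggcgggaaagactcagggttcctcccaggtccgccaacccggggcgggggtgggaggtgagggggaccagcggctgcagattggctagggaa
Nox3: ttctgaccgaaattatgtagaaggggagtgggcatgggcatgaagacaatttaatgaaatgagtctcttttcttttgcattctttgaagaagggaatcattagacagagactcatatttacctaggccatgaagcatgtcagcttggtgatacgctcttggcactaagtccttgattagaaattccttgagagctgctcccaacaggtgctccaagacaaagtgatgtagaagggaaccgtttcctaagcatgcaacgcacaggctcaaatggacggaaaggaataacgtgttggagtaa

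*Epyc* has a further RefSeq window, which held 1 match. The *Epyc* window shown and the *Sfrp5* window held 2 matches each, and those of *Nox3* and *Gata3* held none, although *Epyc* was cochlear and *Sfrp5* vestibular. Of the leading genes, 5 cochlear and 6 vestibular ones had a window, and 2 of each held a match, against 21.0% of the 27025 genes with a window. A match is a description of letters and not a binding site. The windows also differ in composition, with 32.3% GC for *Epyc* and 61.3% for *Sfrp5*, and so do the exons, with 36.5% and 60.3%. Both genes passed 3-fold after the GC correction, at 4.78 and -5.42 on the log2 scale.

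Of the gene lists, that of patterning factors held the most cochlear genes. They are transcription factors that set organ and position within the otic vesicle. Of 45 described, 20 (44.4%) were cochlear and 7 (15.6%) vestibular, with a median log2 ratio of 1.14 against 0.04 over all described genes. *Gata3*, which is required for cochlear development, read 5323.5 in cochlear and 75.5 in vestibular ENSCs. In HCs it read 3920.5 and 30.5, so that both cochlear libraries were high and both vestibular ones low. The orphan nuclear receptor *Nr2f2* read 3978.5 and 89.5, and the LIM-domain gene *Lmo3* read 1629.5 and 42. In HCs the cochlear excess of these 3 genes was at least 3-fold as well. *Nr2f1* (13361.5 and 999.5), *Irx5* (1501.75 and 64.25) and *Isl1* (4976.25 and 339) were cochlear too. Of these, *Isl1* did not part the HCs, at 3682 and 2957.25, and neither did *Irx5*, at 377.75 and 386.

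Some of the cochlear factors did not part the HCs by 3-fold. *Sox2*, which marks prosensory and supporting cells, read 2103.75 in cochlear and 465.75 in vestibular ENSCs, a 4.52-fold difference. In HCs it read 2659.5 and 3960.75. *Eya1*, a coactivator of the otic vesicle, read 9427 and 2668, whereas in HCs it read 7012 and 6104.5. The vestibular factors were fewer. *Esrrb*, a nuclear receptor known from the stria and from dark cells, read 72.75 and 1234.75. *Tbx3*, a T-box factor, read 261.5 and 3319.75. *Meis2* read 223 and 2747.5, and in HCs 43.25 and 1549.5, so that this homeobox gene was vestibular in both populations, as was *Meis1* (168.5 and 709.75). *Dlx5*, a homeobox gene of the dorsal otic vesicle from which the canals form, lay in the tied low range in cochlear ENSCs and read 223.5 in vestibular ENSCs, or at least 9.82-fold higher. After the GC correction 22 patterning factors were cochlear and 5 vestibular.

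**Figure D3:**
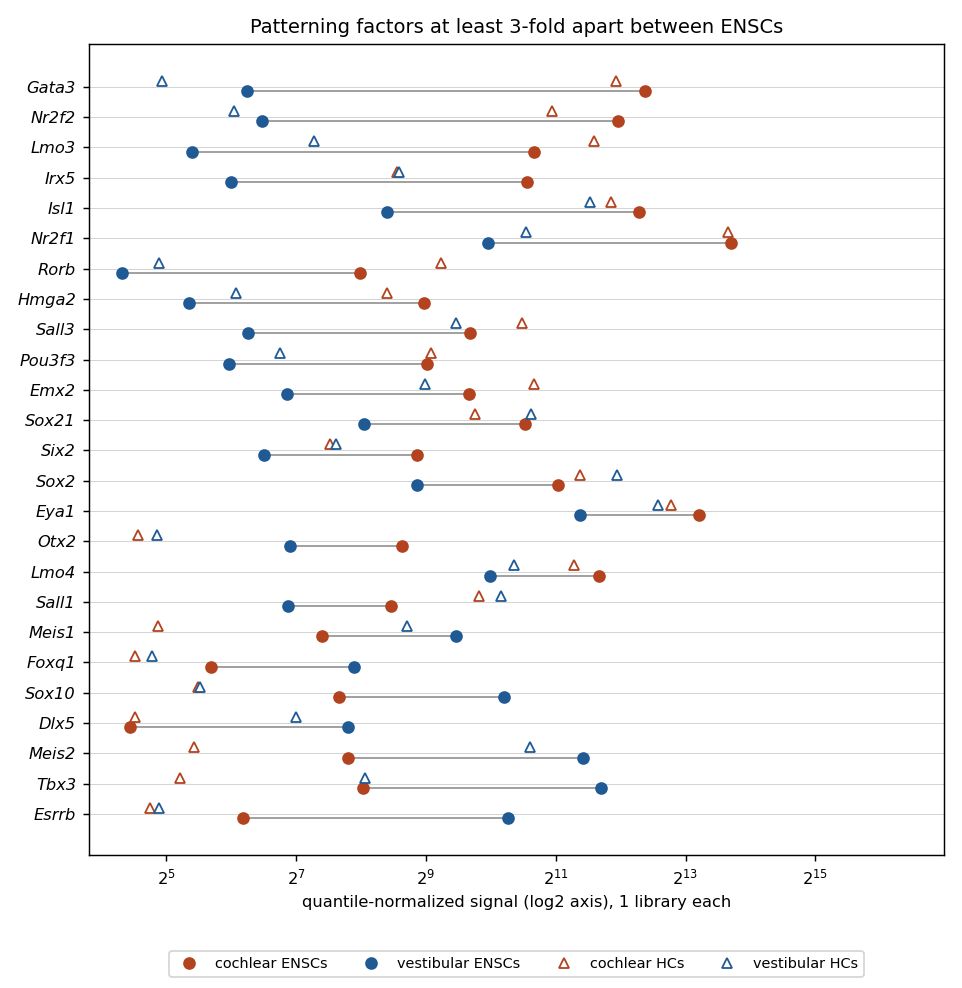
Signal (log2 axis) in the 4 libraries for patterning factors at least 3-fold apart between ENSCs, ordered by ratio, with ENSCs as filled circles joined by a line and HCs as open triangles. The cochlear factors stand at the top, and *Gata3*, *Nr2f2* and *Meis2* keep their direction in HCs, while the HC symbols of *Isl1* and *Irx5* lie together.

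Markers of the cochlear floor were taken by cell type. Of 18 described, 9 were cochlear and 3 (16.7%) vestibular. In the greater epithelial ridge, 4 of 6 markers were cochlear and none vestibular. *Epyc*, which encodes the proteoglycan epiphycan, read 62028.5 in cochlear and 1119.25 in vestibular ENSCs, and 763.75 and 210 in HCs. *Fgf10*, a ligand of the growth factor receptor FGFR2, read 7968 and 684, and *Crabp1*, a retinoid-binding protein, read 482.25 against the floor, or at least 24.1-fold higher. *Tecta* (11861.25 and 4648.75) missed 3-fold, and *Otoa*, which anchors the tectorial membrane, was lower in the cochlea with 1081 and 2121.25. Among lateral floor markers *Fst*, a secreted inhibitor of activins and BMPs, read 1191 against the floor, at least 59.5-fold higher, and *Lmo3* has been given above. *Bmp4* and *Nupr1* fell short of a signal of 200, with 109 and 23.75 for *Bmp4* and 61.5 and 27.25 for *Nupr1*.

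Markers of the supporting cells of the organ of Corti were mixed. Of 7 pillar and Deiters cell markers described, 2 were cochlear and 2 vestibular. *Lgr5*, the R-spondin receptor that marks a subset of supporting cells, read 748.5 in cochlear and 30 in vestibular ENSCs, and *Cdkn1b*, which holds these cells out of the cell cycle, read 2307.25 and 571. *Prox1* (1407.75 and 924.75) and *Hey2* (508 and 407.75) differed by less than 2-fold. *S100a1*, a calcium-binding protein, was vestibular with 185.5 and 1582, *Emid1* with 114.25 and 628, and *S100b* read 150.5 and 422.75. *Fgfr3* (137.25 and 21.5), *Ngfr* (65.75 and 20.5), *Hes5* (42.25 and 20) and *Npy* (20 and 27.5) were too low to be described. Among markers of inner phalangeal and border cells, *Fabp7*, a fatty acid-binding protein, was cochlear with 763.75 and 98. *Matn4* was vestibular with 25.5 and 442.25. *Slc1a3*, the glutamate transporter, read 347.25 and 525.75, and *Lfng* was low in both, at 38.75 and 30.75. After the GC correction *Emid1* no longer passed and *Tecta* did, at 2.11 on the log2 scale.

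Markers of the roof and of potassium-secreting epithelium were divided. Of 13 described, 5 (38.5%) were vestibular and 3 (23.1%) cochlear, and 3 and 3 after the GC correction, with a median log2 ratio of -0.12 before it and 0.038 after it. The dark and marginal cell gene *Kcne1*, a potassium channel subunit, read 139.25 in cochlear and 670.5 in vestibular ENSCs. The sodium pump subunit *Atp1b2* (545.25 and 3806) was vestibular, whereas *Slc12a2*, the sodium, potassium and chloride cotransporter, read 15030.5 and 8051.25. *Kcne1* lost the call after the GC correction, at -1.37 on the log2 scale, and *Atp1b2* kept it at -2.10. *Bsnd* (20.75 and 103.75) and *Kcnq1* (49.75 and 141.75) were too low to be described. *Met* (466 and 154.25) was cochlear at 3.02-fold, though not after the GC correction, and *Hspa2* (2066.75 and 708.5) was just under 3-fold as deposited and passed after the correction, at 2.51 on the log2 scale. In the roof, *Otx2*, a homeobox gene of the Reissner membrane, read 395 and 120.25, *Otx1* 61.5 and 25, and *Lmx1a* 1610.75 and 2172.75. *Oc90*, which is counted among both roof and otoconial genes, was the vestibular roof marker, with 5341.75 and 37323.75. Of endolymphatic sac markers, *Atp6v1b1*, a proton pump subunit, read 323 against the floor, *Slc26a4* read 281.75 and 225.75, *Car12* 987.5 and 1071.75, and *Atp6v0a4* lay at the floor in both.

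The acellular matrices of the organs followed their anatomy in part. Otoconial genes were mostly vestibular, with 5 of 9 described (55.6%) against 1 (11.1%) cochlear. *Oc90*, which encodes the main otoconial protein, read 5341.75 in cochlear and 37323.75 in vestibular ENSCs, a 6.99-fold difference, and it was therefore also high in the cochlea. *Nox3*, the oxidase without which otoconia do not form, read 34.25 and 2604. *Otol1*, the otoconial scaffold otolin, read 1223 and 4852.75. *Spp1* (96.5 and 1010.75) was vestibular too, and in HCs it read 51.5 and 2615.25. *Sparc* read 16060.25 and 62028.5 but lost the call after the GC correction, at -1.43 on the log2 scale. *Sparcl1* (5752.5 and 3930.75) and *Mcoln3* (1298.5 and 2013.75) differed by less than 2-fold. *Atp2b2*, the plasma membrane calcium pump of hair bundles, was cochlear with 447.5 and 127.75. *Otop1* (21.5 and 121.25) and *Cyba* (27.25 and 37) were too low to be described.

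Of 11 tectorial membrane genes described, 1 (9.09%) was cochlear and 2 (18.2%) vestibular, beside 9.58% and 10.7% of all described genes. *Tectb*, which encodes beta-tectorin, was cochlear with 7994.5 and 1507, and *Otogl* (2414.75 and 815.75) reached 2.96-fold. *Otog*, or otogelin, which also forms the vestibular matrices, was vestibular with 1432.75 and 10905. Of the 6 collagens, 5 read higher in vestibular ENSCs, with *Col2a1* at 5438.75 and 22404.75, *Col9a1* at 8876 and 21040.5, *Col9a2* at 1090 and 2470, *Col9a3* at 2792.75 and 6554.75 and *Col11a2* at 786.25 and 1658.5. *Col11a1* went the other way with 20412.75 and 10955.5. Of the collagens only *Col2a1* passed 3-fold, and the median log2 ratio of the 6 went from -1.21 to 0.34 with the GC correction. The median log2 ratio of the 11 genes was -1.08 as deposited and 0.63 after the GC correction, and both *Otog* and *Col2a1* lost the call, which left 2 cochlear genes, *Tectb* and *Tecta*, and 0 vestibular ones.

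**Figure D4:**
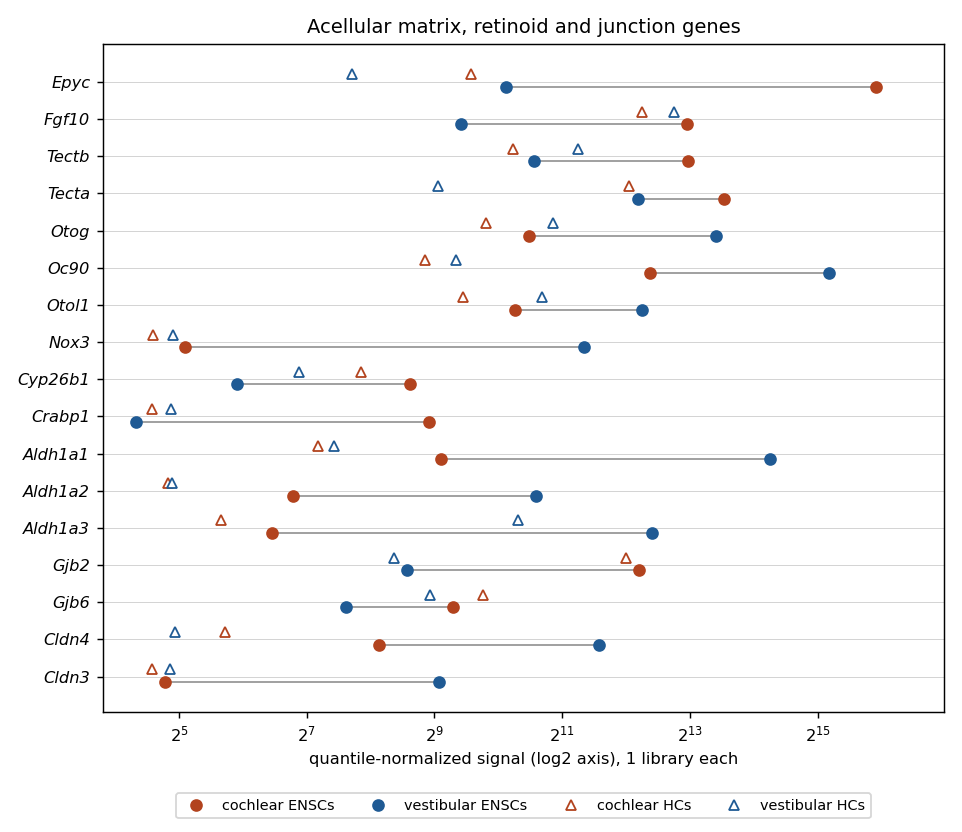
Signal (log2 axis) in the 4 libraries for genes of the acellular matrices, of retinoid metabolism and of cell junctions, with ENSCs as filled circles joined by a line and HCs as open triangles. *Epyc*, *Fgf10*, *Tectb*, *Crabp1*, *Cyp26b1* and the connexins lie higher in cochlear ENSCs, and *Oc90*, *Nox3*, the *Aldh1a* genes, *Cldn3* and *Cldn4* in vestibular ENSCs.

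Small leucine-rich proteoglycans, which bind collagen fibrils, were largely cochlear, with 5 of 8 described (62.5%) and 2 vestibular. Besides *Epyc*, *Lum* read 12731.25 in cochlear and 413.75 in vestibular ENSCs. *Aspn* (419.5) and *Kera* (314.5) were at the floor in vestibular ENSCs, which makes them at least 21.0-fold and 15.7-fold higher. *Fmod* was vestibular with 24.75 and 384.75, and *Prelp* with 155.5 and 481, of which *Prelp* lost the call after the GC correction. *Lum* is also a gene of mesenchyme, and of the 8 mesenchymal genes described, *Lum* among them, 3 were cochlear and 3 vestibular.

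Retinoic acid is a vitamin A derivative that acts on nuclear receptors and patterns the otic vesicle. Its synthesis genes were vestibular without exception among those described. *Aldh1a1*, *Aldh1a2* and *Aldh1a3*, the dehydrogenases that make it, read 551, 110.25 and 87.5 in cochlear ENSCs and 19506.5, 1538 and 5457 in vestibular ENSCs. *Rdh10*, which makes the precursor retinal, read 1208.75 and 5608.25. The degrading enzyme *Cyp26b1* was cochlear with 391 and 60, as were the binding proteins *Crabp1* and *Crabp2* (266 and 58.5). In sum 6 of 11 described genes (54.5%) were vestibular and 3 (27.3%) cochlear. The 4 synthesis genes still passed after the GC correction. In HCs only *Aldh1a3* among the dehydrogenases was above 200, with 50.25 and 1266.75. *Slco2a1*, *Ptgs1*, a cyclooxygenase (43 and 417.25), and *Ptgds*, a prostaglandin D synthase (250.75 and 2149), formed a further vestibular group. They were 3 of the 4 described genes of prostaglandin and steroid metabolism.

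Secreted signals of the WNT and BMP pathways were found on both sides. Of 31 WNT genes described, 8 (25.8%) were cochlear and 4 (12.9%) vestibular. The agonist *Rspo2* (2481 and 139.5) and its receptor *Lgr5* were cochlear, as were the inhibitors *Dkk2* (914 and 119.5) and *Wif1* (324.5 and 70.5). The inhibitors *Sfrp5* and *Apcdd1* (45.5 and 1056) were vestibular, as were the ligand *Wnt3*, which lay in the tied low range in cochlear ENSCs and read 313 in vestibular ENSCs, and the feedback inhibitor *Nkd1* (176.75 and 563), which lost its call after the GC correction. Agonists and inhibitors were thus on either side. Of 28 BMP and TGF-beta genes, 5 (17.9%) were cochlear and 4 (14.3%) vestibular. Of 7 secreted inhibitors described, 3 were cochlear, 1 vestibular and 3 neither, with *Fst* and *Nog* (360 and 21.5) cochlear and *Grem1* vestibular at 1045.5 and in the tied low range of the cochlear library, or at least 46.0-fold higher. The ligand *Tgfb2* (14397.75 and 2452.5) and the receptor *Acvr1b* (1712.5 and 270) were cochlear. *Bmp2* (26 and 257.25), *Bmp3* (194.75 and 844) and the coreceptor *Tgfbr3* (249 and 1087.75) were vestibular, *Bmp3* only before the GC correction.

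In the FGF pathway, 1 of 17 described genes was cochlear, *Fgf10*, and 1 was vestibular, the response gene *Etv1* (117.25 and 352.5), which is 5.88% each way and below the shares over all described genes. The median log2 ratio was -0.94, with 15 of the 17 below 0, and after the GC correction 2 were cochlear and 1 vestibular. In the Notch pathway the ligand *Jag1* (5297.5 and 761) and the effector *Hes1* (685 and 185) were cochlear, and the receptor *Notch1* (351.75 and 1887) and the effector *Heyl* (60 and 209.5) were vestibular, of 14 described. *Notch1* and *Heyl* lost the call after the GC correction, at -1.24 and -0.67 on the log2 scale, and the pathway then had 5 cochlear genes and 0 vestibular ones. In the IGF pathway 2 of 9 described genes were cochlear and 2 vestibular. The ligands *Igf1* (21968.25 and 4917) and *Igf2* (5119 and 567) were cochlear. The binding proteins *Igfbp2* (140.75 and 2957.25) and *Igfbp4* (105.5 and 1505) were vestibular, of 4 binding proteins described. After the GC correction 3 genes of the pathway were cochlear, 1 of them a binding protein, and 2 were vestibular.

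Connexins and claudins went opposite ways. Connexins join neighbouring supporting cells and let potassium pass, and 3 of the 4 described were cochlear with none vestibular. *Gjb2*, a frequent deafness gene, read 4725.5 in cochlear and 382.25 in vestibular ENSCs. *Gja1* read 699.5 and 115.25, and *Gjb6* read 624.25 and 196.5. Claudins seal tight junctions, and 5 of 8 described were vestibular with 1 cochlear. *Cldn3* read 27.5 and 539.25, *Cldn4* 280.75 and 3065.75, *Cldn8* 1575 and 7994.5, and *Cldn9* 591 and 2844.25. *Cldn11*, the claudin of the basal cells of the stria vascularis, was the cochlear one with 4500.25 and 1245. After the GC correction 3 claudins were vestibular, *Cldn9* no longer among them, and the 3 connexins were still cochlear.

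Of 15 described genes of epithelial identity, 6 (40.0%) were vestibular and 0 cochlear, with a median log2 ratio of -1.15. After the GC correction 2 were vestibular and 1 cochlear. The keratins *Krt8* (96.5 and 1524) and *Krt18* (581 and 6188.75) had the largest ratios, at 15.8-fold and 10.7-fold. The cadherin *Cdh3* (375 and 1869.25) and the protease *St14* (114.25 and 564.75) followed. *Epcam* itself was 2.22-fold higher in vestibular ENSCs and did not pass. Both keratins passed after the correction, *Cdh3* and *St14* did not, and the median was -0.35.

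**Figure D5:**
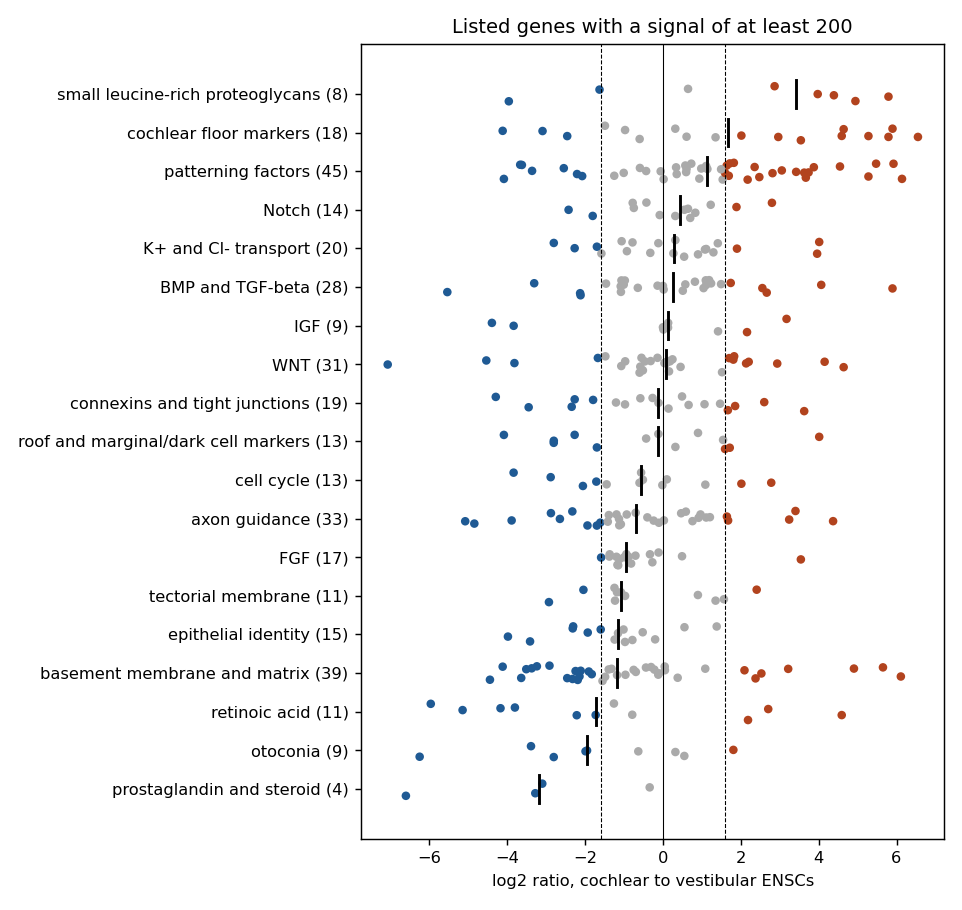
Log2 ratio of cochlear to vestibular ENSCs for the described members of 19 gene lists, 1 point a gene, with the number of genes in brackets and the median as a black bar. Dashed lines mark 3-fold, and genes past them are red (cochlear) or blue (vestibular). The medians run from 3.42 for small leucine-rich proteoglycans to -3.19 for prostaglandin and steroid genes.

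Genes of matrix, guidance and transport were divided by member. Of 39 basement membrane and matrix genes, 15 (38.5%) were vestibular and 7 (17.9%) cochlear, and 9 and 7 after the GC correction. Among the integrins *Itga8*, *Itgb6* (1378.75 and 46) and *Itga4* (906.5 and 97.5) were cochlear, while *Itga5* was vestibular with 250.75 and in the tied low range of the cochlear library. *Hspg2*, or perlecan, read 236.75 and 2951.25, and the proteoglycan *Vcan* read 147 and 3198. Of 33 axon guidance genes, 9 (27.3%) were vestibular and 5 (15.2%) cochlear, and 5 and 5 after the GC correction, with a median log2 ratio of -0.70 before it and -0.0003 after it. *Robo2* (1592 and 77), *Epha7* (11670.25 and 1102.5), *Plxna2* (1130.75 and 119.5) and *Unc5b* (240 and 75.25) are receptors and were cochlear. The ligands *Sema3e* (103.75 and 3505.75), *Ntn1* (125.5 and 3604.75) and *Sema3b* (33.25 and 244.25) and the receptor *Plxna4* (697.75 and 10316.75) were vestibular, *Sema3b* only before the GC correction. Of 20 potassium and chloride transport genes, 3 were cochlear and 3 vestibular, and 3 and 1 after the GC correction. The chloride channel *Ano1* read 1015.5 and 65.25, and the pump subunit *Atp1b1* 7107 and 1902.5, opposite to *Atp1b2*.

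Of 13 described cell cycle genes, 2 were cochlear and 4 vestibular. *Cdkn1c* (5500.5 and 800) and *Cdkn1b* were cochlear, whereas the proliferation marker *Mki67* (29 and 414) and the cyclins *Ccnd2* (610.25 and 1998) and *Ccnd3* (62 and 457.5) were vestibular. The inhibitor *Cdkn1a* was vestibular too, with 1004.5 and 4175.75. None of the 12 listed mitosis genes in the table reached a signal of 200 in ENSCs, so that *Mki67* stood without them. *Ccnd2*, *Ccnd3* and *Cdkn1a* lost the call after the GC correction, and *Mki67* kept it at -3.85 on the log2 scale.

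Many vestibular genes were low in HCs. Of the 628 vestibular genes, 476 (75.8%) were at least 3-fold lower in vestibular HCs, whereas 167 of the 564 cochlear genes (29.6%) were at least 3-fold lower in cochlear HCs. Over all 5889 described genes, the same counts were 1240 for the vestibular system and 822 for the cochlea. These ratios share the ENSC library with the comparison itself, were not corrected for GC content, and were not tested. Exonic GC content had a median of 53.7% in the 628 vestibular genes and 44.7% in the 564 cochlear ones. In the HC libraries, 391 vestibular genes (62.3%) and 156 cochlear genes (27.7%) stayed under 200 in both, against 22.9% of all described genes. Most described genes were less than 3-fold apart between ENSCs, whereas the counted genes could reach 200 through the higher ENSC library only. The contrast with all described genes may thus follow in part from the selection. Of the 408 cochlear genes that reached 200 in an HC library, 65 were at least 3-fold higher in cochlear HCs and 15 in vestibular HCs. Of the 237 vestibular genes that did, 63 were at least 3-fold higher in vestibular HCs and 5 in cochlear HCs. The remaining genes of either kind were less than 3-fold apart between the HC libraries. Among all 5621 genes that reached 200 in an HC library, 240 (4.27%) were at least 3-fold higher in cochlear HCs and 316 (5.62%) in vestibular HCs, or 556 (9.89%) in all.

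The counts also differed by class of transcript, and no test was made. They stand beside 9.58% cochlear and 10.7% vestibular among all described genes. Of 115 described pseudogenes, 60 were vestibular and 10 cochlear. Of 37 ribosomal protein genes, 19 were vestibular and 1 cochlear, with a median log2 ratio of -1.61 as deposited and -1.03 after the GC correction. Genes with less than 1000 bases of exon were vestibular in 78 of 192 cases and cochlear in 20. Pseudogenes were also lower in cochlear HCs, with a median log2 ratio of -1.05 between HCs, the same sign as in ENSCs. Reads of ribosomal protein genes and of their processed pseudogenes can be shared in the counting, and their values are uncertain. Of 19 long intergenic non-coding RNAs, 9 were cochlear and none vestibular, with 7 cochlear after the GC correction. Their median log2 ratio was 1.56 between ENSCs and -0.20 between HCs.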

How the data were processed

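Sorted ENSCs and HCs of both organs gave RNA that was amplified with the NuGEN Ovation kit. Per the methods, only 50 nt from the start of every read were mapped to mm9 with TopHat, and HTSeq gave the reads of each ENSEMBL gene. The authors then applied quantile normalization across the columns and a floor of 20, so that the deposited values are a signal and no longer counts. Versions and the strand setting were not given in the sources used here. The columns carry the organ and the name non-HC, and each was assigned to the ENSC sample of its organ. Quantile normalization gives every column the same sorted values, and it removes differences in depth, so the depth of each library is unknown and no interval for counting error can be given.

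Log2 ratios of cochlear to vestibular ENSCs were computed with no pseudocount (Python 3.11.15, pandas 2.3.3, statsmodels 0.14.6). With 1 library per group no test was made. The lowest values of a library were treated as tied ranks, up to 22.75 in cochlear ENSCs and 20 in vestibular ENSCs. That limit was set by a rule on how high the genes at each low value read in the other libraries. In cochlear ENSCs the range held 1911 genes, of which 1412 were at the floor. A fold against such a value is given as a lower bound from the top of the range. Exonic GC content and length came from the GENCODE annotation of NCBIM37, which is mm9, for 12799 of 12814 genes. For 240 genes without a usable symbol, 19 of them turned into numbers by a spreadsheet, the symbol of the annotation was used. For the GC correction a local regression (0.3 of the genes, 2 robust iterations), fitted on described genes above the floor in both ENSC libraries, was subtracted. The procedure was also run on simulated data with a linear GC trend and changed genes picked without regard to GC content. That simulation cannot show how the correction treats true differences that follow GC content.

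The members, gene lists and tests were chosen with earlier results of these data known. Genes named were the 10 protein-coding genes with the largest ratio each way, up to 4 members of each list each way past 3-fold, *Epcam*, *Krt18* and all members of the floor, roof, tectorial and otoconial lists. Some genes that this rule names are not reported here. Threshold neighbours and further genes named in the text were chosen after their values were seen. Alternatives were another minimum signal, ratio, pseudocount or floor, tied values, protein-coding genes only, centring, and corrections for GC content with and without length. A GC fit on all genes above the floor was added after seeing the data.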

Additional observations from a re-analysis of the deposited data

Results flagged for a closer look

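Among the named genes, 2 went opposite ways in ENSCs and HCs by at least 3-fold. *Vcan*, which encodes the matrix proteoglycan versican, was vestibular in ENSCs with 147 in cochlear and 3198 in vestibular cells. In HCs it was cochlear with 1747 and 284, a log2 ratio of 2.62. *Itga4*, the integrin alpha 4 subunit, was cochlear in ENSCs with 906.5 and 97.5, and vestibular in HCs with 24.25 and 361.25, a log2 ratio of -3.90. Each population had 1 library, and the difference between the populations was not tested.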

How the results depend on the processing

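No paired analysis was possible because each population had 1 library. As reported, 564 genes were cochlear and 628 vestibular. A minimum signal of 500 gave 327 and 388, a ratio of 2-fold 1170 and 1174, a ratio of 5-fold 279 and 317, and a pseudocount of 100 gave 298 and 361. The GC correction lowered the vestibular count to 338 and the correction for length and GC to 305 (67.1% of the counted genes then cochlear), and the cause was not tested. A minimum of 100, a pseudocount of 20, a floor of 50, tied values at their top, protein-coding genes only and centring kept both counts within 1.5 times. So did the GC fit on all genes above the floor, with 466 and 470 (49.8% cochlear), so that the cochlear excess after GC correction depended on the genes fitted. None of the named genes past 3-fold changed direction under any alternative run, but 23 of the 167 with a GC value fell below 3-fold with the GC correction, 7 rose past it, and 24 fell below it with a pseudocount of 100.

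List medians, taken over lists of at least 3 genes, changed sign as follows. With the GC correction the median was 0.038 for roof markers, 0.63 for tectorial membrane genes, 0.43 for junctions, -0.0047 for HC genes and 0.17 for glial genes. With length and GC it was 0.028, 0.51 and 0.42 for roof markers, tectorial membrane genes and junctions, 0.20 for glial genes and 0.040 for axon guidance. With the GC fit on all genes it was 0.15 for junctions and -0.11 for HC genes. With a minimum signal of 100 the median of potassium and chloride transport was -0.55.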
